A study of Mus musculus with 4 samples.

Results

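The senescence-associated cytokines and chemokines described here are 9 genes of secreted proteins: Il6, Cxcl1, Cxcl2, Cxcl5, Cxcl12, Ccl2, Ccl7, Areg and Tnfrsf11b, out of 21887 protein-coding genes of the RefSeq annotation. They were chosen by name for what they encode, and the rule uses no peak value. Around each, every ATAC-seq peak was taken whose midpoint fell within the gene span or up to 50000 bp to either side. This gave 180 of 433013 peaks in the Sod2+/+ control library, 222 of 585165 in the Sod2-/- library, 148 of 340240 in the vehicle library and 144 of 347438 in the rotenone library. The windows of Cxcl1 and Cxcl2 overlap, as do those of Ccl2 and Ccl7, and a peak in both windows was counted once in these totals.

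ATAC-seq maps accessible chromatin, where the Tn5 transposase can insert sequencing adapters. The 4 libraries came from dermal fibroblasts of C57BL/6 mice, with 1 library per group: Sod2+/+ cells, cells with a conditional knockout of Sod2 (Sod2-/-), Sod2+/+ cells given vehicle, and Sod2+/+ cells given rotenone, labelled at 250 µM. Sod2 encodes the superoxide dismutase of mitochondria, and rotenone blocks respiratory complex I. All 4 carry the label 100 days, with no word on what is counted; the sources used here do not name the driver of the Sod2 deletion, the vehicle, the length of treatment or the number of animals behind a library. Knockout cells were set against Sod2+/+ control cells, rotenone against vehicle, and vehicle against the Sod2+/+ control as a pair that differs in neither Sod2 nor rotenone. Because no group has a second library, no difference below has a replicate check or a p-value, and RNA was not measured in these files.

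Senescent fibroblasts stop dividing but secrete a mixture of cytokines, chemokines, growth factors and proteases known as the senescence-associated secretory phenotype. IL-6 signals through a receptor that contains gp130; CXCL1, CXCL2 and CXCL5 attract neutrophils through CXCR2; CCL2 and CCL7 attract monocytes through CCR2; and CXCL12, the ligand of CXCR4, is made by stromal fibroblasts. Amphiregulin, from Areg, is a ligand of the EGF receptor, and osteoprotegerin, from Tnfrsf11b, is a secreted decoy receptor for the cytokine RANKL. Transcription factors of the NF-kB, C/EBP and AP-1 families are known regulators of many of these genes.

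Each peak is given by its fold enrichment over the local background and by its rank, where rank 1 is the peak with the highest −log10 p of its library. A peak among the 30000 highest ranked of its library is called strong. The 30000 strong peaks had a median fold of 6.78 in control cells, 5.49 in knockout cells, 7.13 with vehicle and 5.99 with rotenone, and a median width of 376, 293, 349 and 277 bp. Folds and widths were thus lower in the knockout and rotenone libraries as a whole, so that a lower fold or a narrower peak at 1 gene has to be read against this shift. The lists differ in length and depth is unknown, so a rank places a peak within its own library and is not a measure of accessibility. As a check of the labelled cells, Col1a2, Dcn and Pdgfra had a strong peak at the gene in every library, but 3 to 4 of 8 fibroblast marker genes did so, against 3 to 4 of 6 keratinocyte genes, 0 to 2 of 5 endothelial, 0 to 2 of 6 myeloid, 1 to 2 of 5 melanocyte and Schwann, and 0 of 4 lymphocyte genes. Peaks at marker genes therefore did not separate fibroblasts from keratinocytes here. The part of other cells in the results was not tested, and in such bulk libraries fewer cells with an open region and less opening per cell cannot be told apart.

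At the genes themselves, 4 members stood above the other 5 in every library. Ccl7, Ccl2, Tnfrsf11b and Il6 had a strong peak in the gene or within 1000 bp of it in every library, so 4 of 9 members did, against 50.6% to 51.9% of all protein-coding genes. Areg had its best peak between ranks 36990 and 47135, behind that of Cxcl12 in vehicle and ahead of the remaining members elsewhere. Cxcl12, Cxcl1, Cxcl2 and Cxcl5 ranged from rank 35921 at best (Cxcl12, vehicle) to rank 256060 (Cxcl1, knockout). Areg and these 4 had no strong peak at the gene in any library. The order of Cxcl12, Cxcl1 and Cxcl2 among themselves differed between libraries, as did that of Ccl7, Ccl2 and Tnfrsf11b.

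**Figure D1:**
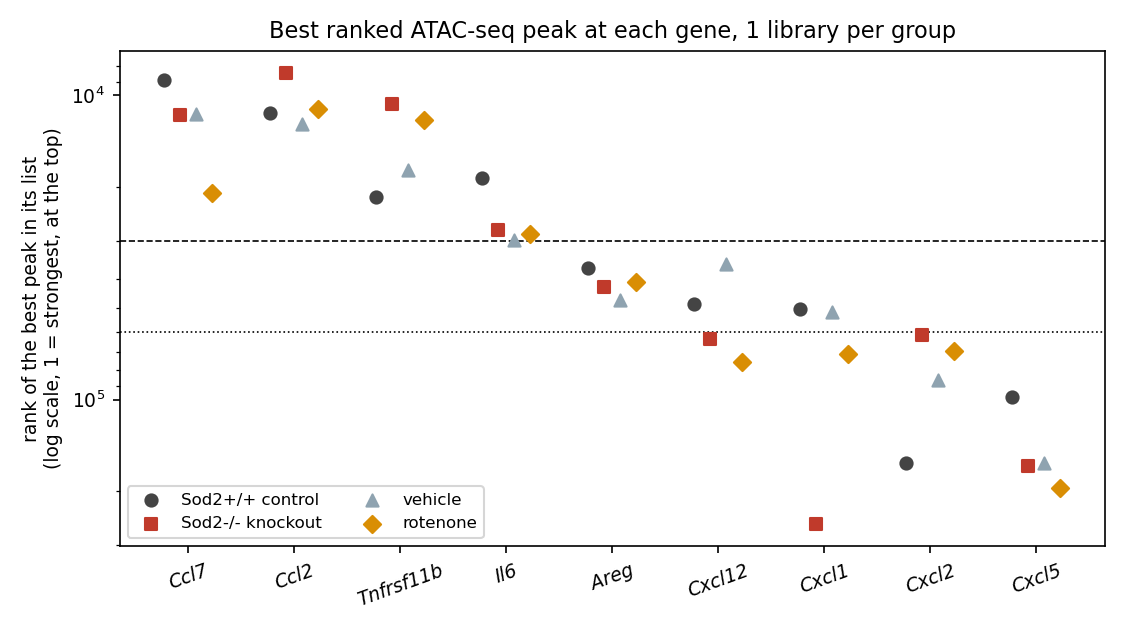
Rank of the best ranked peak that overlaps each gene or the 1000 bp on either side (vertical axis, log scale, rank 1 at the top), with 1 point per library. The dashed line is rank 30000 and the dotted line rank 60000; Ccl7, Ccl2, Tnfrsf11b and Il6 lie above the dashed line in all 4 libraries, and the knockout point of Cxcl1 is lowest, at rank 256060.

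Regions were then compared between libraries. A strong peak was called gained or lost when it overlapped none of the 60000 highest ranked peaks of the partner library. At the member genes 1 of 16 strong knockout peaks was gained (6.25%, against 5.33% of all strong knockout peaks) and 1 of 17 strong control peaks lost (5.88%, against 6.76%). In rotenone 1 of 18 strong peaks was gained (5.56%, against 6.81%) and 1 of 19 strong vehicle peaks lost (5.26%, against 8.04%). Between vehicle and control 0 of 19 and 0 of 17 differed, where 1.03% of all strong vehicle peaks and 0.847% of all strong control peaks did. The members' shares were near the shares over all strong peaks, with only 1 peak behind each of the 4. The 4 regions lay at Tnfrsf11b (gained in the knockout), Cxcl12 (gained in rotenone) and upstream of Ccl2 (1 lost in each comparison), and each is described below.

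A finer comparison, chosen after the values were seen, merged overlapping strong peaks of the 4 libraries into regions and asked where the rank numbers of 2 libraries differed 2-fold or more. In the knockout, 3 of 21 member regions ranked at least 2-fold closer to the top than in control and 2 at least 2-fold lower, which is 14.3% and 9.52%; over all regions it was 16.1% and 17.3%. In rotenone against vehicle it was 2 and 3 of 23, which is 8.70% and 13.0%, with 17.2% and 18.1% over all regions. In vehicle against control it was 0 and 1 of 20, with 4.93% and 3.7% over all regions. The median ratio of rank numbers, second library over first, was 1.01 for the member regions and 0.993 for all regions in the knockout comparison, 0.925 and 1.0 in rotenone, and 1.01 and 0.986 between vehicle and control. The members' medians thus lay between 0.925 and 1.01. Among single regions the largest shifts lay at Ccl2, Cxcl12 and Tnfrsf11b.

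**Figure D2:**
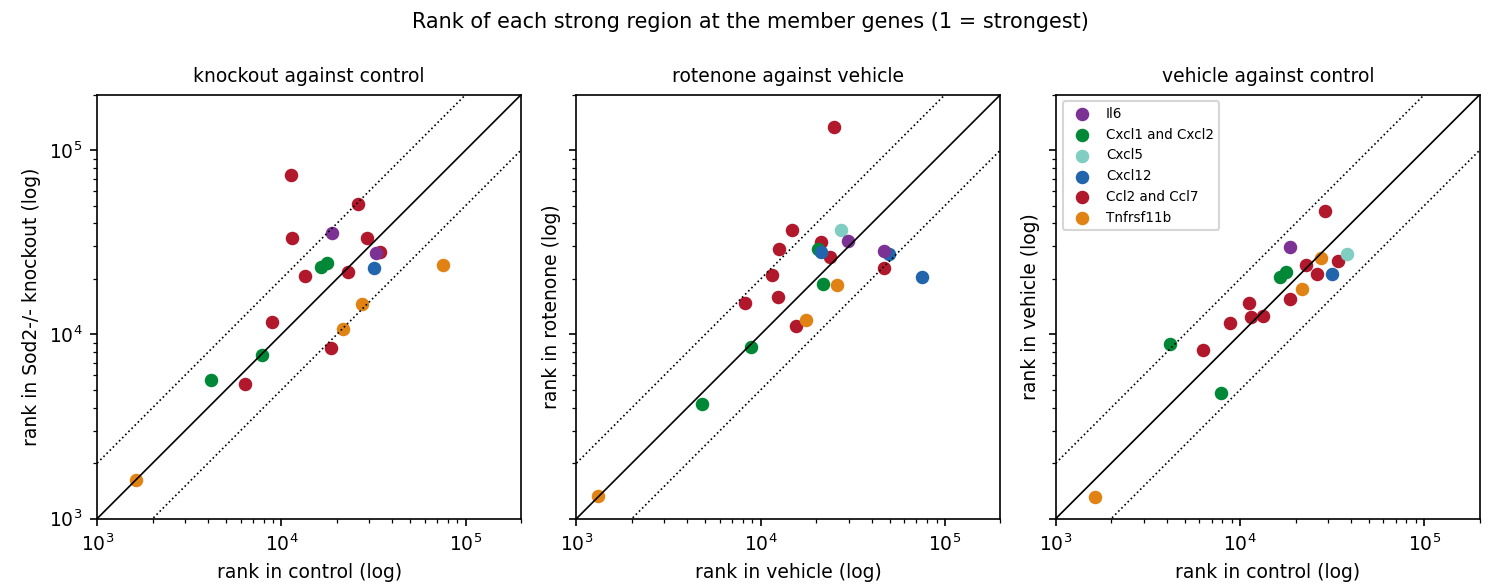
Rank of each merged region at the member genes in the second library of a comparison (horizontal) and the first (vertical), both on log scales, with 1 point per region that is strong in either library; the solid line marks equal ranks and the dotted lines a 2-fold difference. Points above the line rank lower in the first library; the highest point in the rotenone panel is a region upstream of Ccl2 at rank 24979 in vehicle and 133643 in rotenone.

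The neighbouring genes Ccl2 (chromosome 11, 82035577-82037452, mm10) and Ccl7 (82045712-82047525) held more strong peaks than any other member. Of the peaks in the window of Ccl2, 9 of 36 were strong in control cells, 6 of 36 in knockout cells, 9 of 31 with vehicle and 7 of 24 with rotenone. That is 25.0%, 16.7%, 29.0% and 29.2%, where 6.93%, 5.13%, 8.82% and 8.63% of the whole lists are strong. Ccl7, which shares most of these peaks, had the same strong peaks. Another chemokine gene, Ccl11, lies beyond Ccl7, and the region 36451 bp from Ccl2 lies closer to it than to either member.

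Over the low end of Ccl2 lay a pair of peaks whose order changed. The first, at 82035367-82035655, crosses the gene boundary, and the second, at 82034508-82034949, lies from -1069 to -628 bp relative to it. The boundary peak had a fold of 4.94 at rank 11418 in control cells, 3.41 at rank 33340 in knockout cells, 5.22 at rank 12453 with vehicle and 4.999 at rank 15898 with rotenone. It was strong in all libraries but the knockout, where its rank number was more than 2-fold that of control. The outer peak had a fold of 4.01 at rank 18694 in control cells, 5.57 at rank 8455 in knockout cells, 4.63 at rank 15589 with vehicle and 5.34 at rank 11069 with rotenone. Its fold was higher in the knockout and in rotenone than in either control library, although strong peaks as a whole had lower folds there. The fold is relative to the local background, however, and equal folds did not mean equal −log10 p. In control this peak had a −log10 p of 31.82 at a fold of 4.01, and the upstream Il6 peak 31.8 at a fold of 6.51. The part of the local background in these fold differences was not tested. The outer peak outranked the boundary peak in the knockout and rotenone, and the boundary peak outranked the outer one in control and vehicle.

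Another strong peak near Ccl2, at 82032977-82033456, had folds of 6.55 in control cells, 7.14 in knockout cells, 6.40 with vehicle and 5.17 with rotenone, at ranks 6307, 5405, 8240 and 14869. It thus stood higher in the knockout than in its control and lower in rotenone than in vehicle, and opposite orders in the 2 comparisons were not tested against each other. The peak between the genes, at 82039221-82039511, was nearly level, with folds of 4.35, 4.52, 4.70 and 4.43 at ranks 22924, 21861, 23653 and 26442 in control, knockout, vehicle and rotenone.

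The peak over the low end of Ccl7, at 82045518-82045861, was strong in every library. Its fold was 8.86 in control cells, 6.33 in knockout cells, 8.55 with vehicle and 5.43 with rotenone, at ranks 8873, 11626, 11483 and 20952. It stood lower in the knockout than in control and lower in rotenone than in vehicle, by less than 2-fold in rank in both. The region towards Ccl11, at 82073680-82074127, showed the same order: a fold of 7.69 in control cells, 4.98 in knockout cells, 8.21 with vehicle and 4.69 with rotenone, with ranks of 13347, 20684, 12546 and 29028. In rotenone this was a drop of more than 2-fold in rank.

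Upstream of Ccl2, a cluster of 4 strong regions between -28759 and -20168 bp held the lost regions of both comparisons. They lay at different places with the list lengths used here. The region at 82013797-82014083 had a fold of 7.63 at rank 11226 in control cells, 2.95 at rank 73505 in knockout cells, 7.66 at rank 14704 with vehicle and 4.16 at rank 37057 with rotenone. It was the lost region of the knockout, and in rotenone it left the strong list without passing rank 60000. With 15000 strong peaks and a partner list of 30000, it was lost in both comparisons. The region at 82006818-82007404 had a fold of 4.99 at rank 34182 in control cells, 4.29 at rank 27985 in knockout cells, 6.09 at rank 24979 with vehicle and 2.90 at rank 133643 with rotenone. It was the lost region of rotenone, while in the knockout it ranked higher than in control. A peak remained at both places in each library, so neither region was absent.

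The other 2 regions of this cluster stayed inside the lists. The region at 82011825-82012065 had folds of 4.92, 3.37, 5.75 and 4.51 at ranks 26001, 51243, 21257 and 31711 in control, knockout, vehicle and rotenone; its knockout peak was the nearest to rank 60000 of those not called, and the nearest called one was at rank 73505. The region at 82015091-82015409 had folds of 4.80, 4.02, 4.19 and 5.19 at ranks 29034, 33227, 46943 and 22986. It was the only one of the cluster to rank higher in rotenone than in vehicle, by more than 2-fold.

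**Figure D3:**
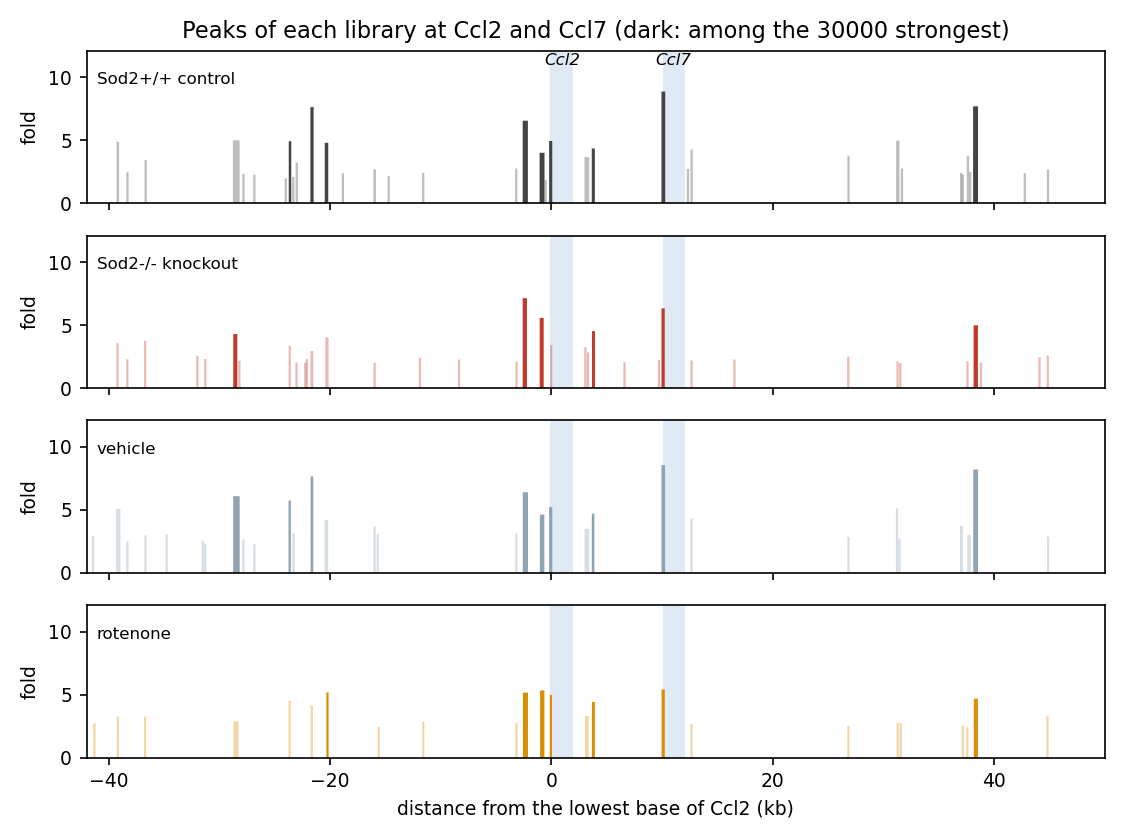
Fold enrichment (vertical) of every peak around Ccl2 and Ccl7 in each library, drawn at its distance from the lowest base of Ccl2 in kb, with the genes shaded, strong peaks in dark and weaker ones in pale colour; the narrowest peaks are widened to be seen. The tallest control and vehicle bar upstream of Ccl2 (folds 7.63 and 7.66) is low and pale in the knockout (2.95) and pale in rotenone (4.16), and the bar at Ccl7 is tallest in control and vehicle.

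Tnfrsf11b (chromosome 15, 54250619-54278484) carried the highest ranked region of all members, 16060 bp beyond its upper end at 54294290-54294798. Its fold was 12.0 in control cells, 11.5 in knockout cells, 14.3 with vehicle and 13.3 with rotenone, at ranks 1631, 1615, 1304 and 1334. This distal region thus kept its place near the top of every list. A neighbour at 54296718-54296948 had folds of 4.92, 5.82, 5.45 and 5.75 at ranks 27438, 14640, 25888 and 18412 in control, knockout, vehicle and rotenone.

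The peak over the upper end of Tnfrsf11b changed in width and in rank. In control it ran over 749 bp (54278132-54278880) and in vehicle over 696 bp (54278133-54278828), both across the gene boundary. In the knockout the strong peak was 323 bp wide (54278479-54278801), almost wholly outside the gene, with separate weak peaks of 146 and 112 bp inside it (folds 2.78 and 2.71). In rotenone it was 182 bp wide (54278599-54278780), outside the gene, with a weak peak of 43 bp inside (fold 2.37). The fold of the strong peak was 5.77 in control cells, 6.28 in knockout cells, 6.59 with vehicle and 6.81 with rotenone, at ranks 21639, 10669, 17637 and 12013. The knockout and rotenone peaks were therefore narrower, but higher in fold and rank than those of their own controls.

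Narrowing as such was common. Of the member regions, 17 of 21 had a narrower peak in the knockout than in control, where 74.2% of all regions did. It was 19 of 23 in rotenone against vehicle, where 72.6% did, and 16 of 20 in vehicle against control, where 63.2% did. Peaks were thus narrower in most regions of each comparison, at the members and over the genome.

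**Figure D4:**
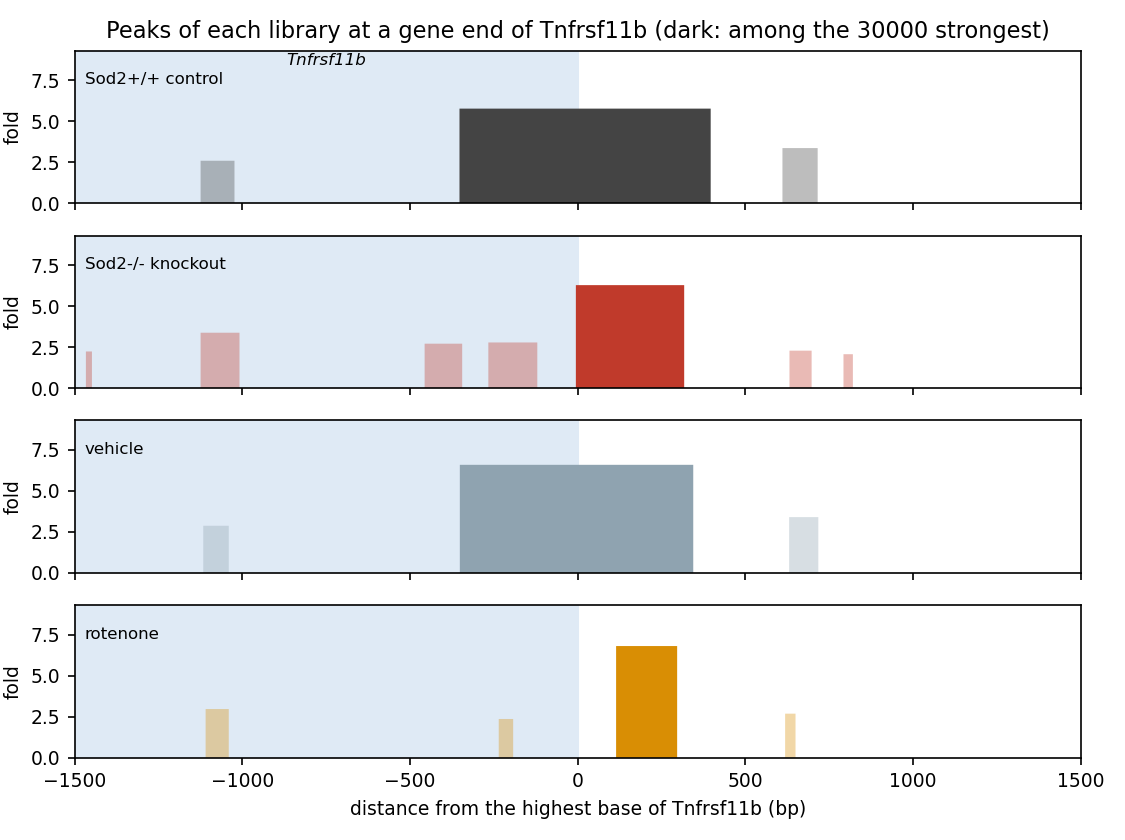
Fold enrichment (vertical) of the peaks around the highest base of Tnfrsf11b in each library (horizontal, bp from that base, gene shaded), strong peaks dark and weaker ones pale. The strong peak spans 749 bp in control and 696 bp in vehicle on both sides of the boundary and lies on the outer side, but for a few bases in the knockout, at 323 and 182 bp in the knockout and rotenone.

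The region counted as gained near Tnfrsf11b in the knockout lay 39472 bp from the gene, at 54317882-54318031. Its peak had a fold of 3.31 at rank 75129 in control cells, 4.65 at rank 23649 in knockout cells, 3.10 at rank 119637 with vehicle and 3.91 at rank 44541 with rotenone. It ranked higher in the knockout and in rotenone than in both control libraries. This region was included only because its knockout peak was strong, so its order in the knockout comparison was set by that choice. The boundary peak and the neighbour at 54296718-54296948 also ranked higher in the knockout than in control and higher in rotenone than in vehicle. The distal top region kept its place.

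Il6 (chromosome 5, 30013114-30019975) had 2 peaks around its RefSeq start and no other strong peak within 50000 bp in any library. The RefSeq window from 250 bases before the start to 50 bases after it (GRCm38.p6, the assembly behind mm10, chr5:30012864-30013163, plus strand) is shown because it holds the ground between the 2 peaks, and which of its motif matches are covered differed between libraries. Capitals mark, in order, a match to the AP-1 motif TGANTCA, a match to the C/EBP motif TTGCNNAA read on the minus strand, and a match to the NF-kB motif GGGNNTTTC.

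Il6: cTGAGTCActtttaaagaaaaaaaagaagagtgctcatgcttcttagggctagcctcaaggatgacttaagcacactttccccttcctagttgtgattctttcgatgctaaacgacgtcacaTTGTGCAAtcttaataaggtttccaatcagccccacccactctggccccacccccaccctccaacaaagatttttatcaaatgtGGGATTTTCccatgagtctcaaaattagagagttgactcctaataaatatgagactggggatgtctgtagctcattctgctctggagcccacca

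The upstream peak had a fold of 6.51 at rank 18705 in control cells, 3.96 at rank 35434 in knockout cells, 5.64 at rank 29778 with vehicle and 4.49 at rank 32194 with rotenone. It was strong in control and vehicle and not in the other two libraries. The peak inside the gene had a fold of 4.95 at rank 32540 in control cells, 4.31 at rank 27613 in knockout cells, 4.36 at rank 46949 with vehicle and 4.65 at rank 28480 with rotenone. It was strong in the knockout and rotenone and not in control and vehicle. The rank differences were below 2-fold for both peaks and both comparisons. For the upstream peak, vehicle and rotenone fell just on either side of rank 30000, and control and vehicle were farther apart than those 2.

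The edges of the peaks differed too. In control the peak inside the gene began at 17 bp and in vehicle at 27 bp from the start, while in the knockout and rotenone it began at 96 and 99 bp. It was narrower there, at 192 and 189 bp against 288 bp in control and 307 bp in vehicle, and lay within the span of those peaks. Most regions of the genome were also narrower in these 2 comparisons. The stretch with no peak between the pair was 156 bp in control, 149 bp in vehicle, 214 bp in the knockout and 205 bp in rotenone. The AP-1 match, from -249 to -243 bp, lay inside the upstream peak in every library. The C/EBP match, from -128 to -121 bp, was covered in the knockout and rotenone, lay outside the peak in control and was cut by its edge in vehicle. The NF-kB match, from -44 to -36 bp, fell between the peaks in all 4 libraries.

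**Figure D5:**
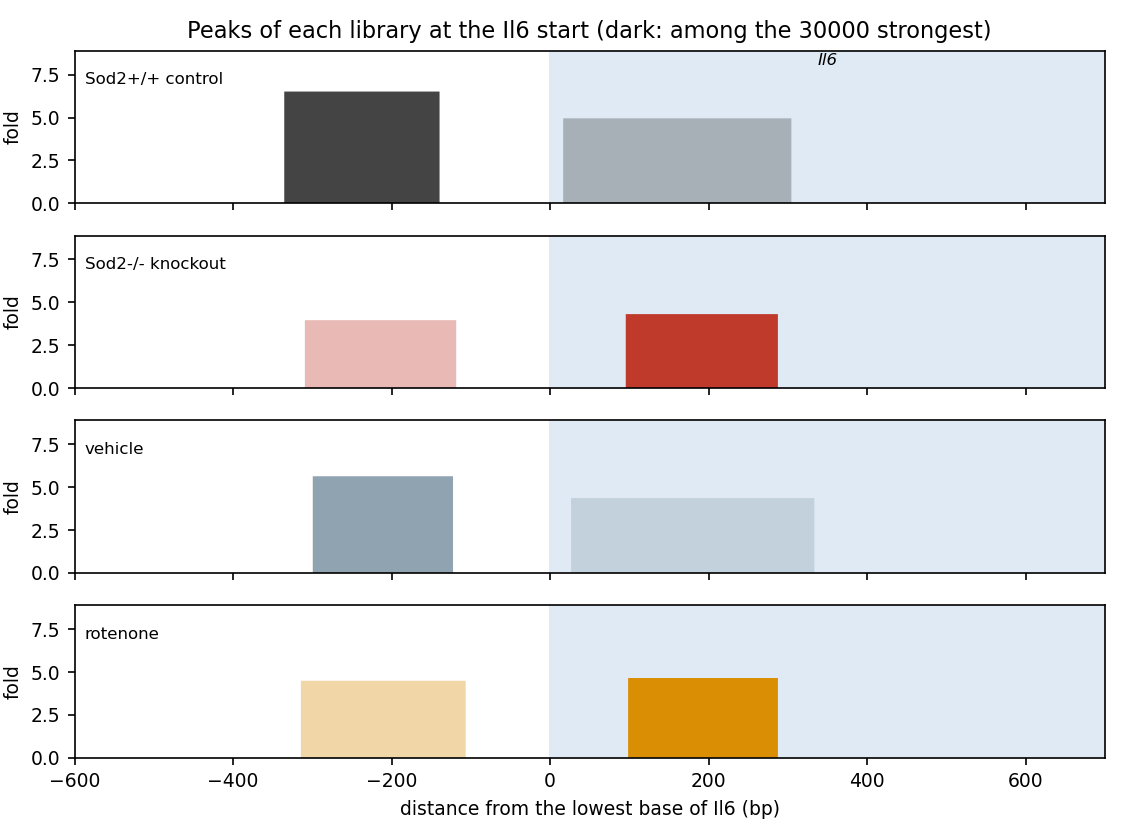
Fold enrichment (vertical) of the peaks around the RefSeq start of Il6 in each library (horizontal, bp from the lowest base of the gene, gene shaded), strong peaks dark and weaker ones pale. The upstream peak is strong in control and vehicle (folds 6.51 and 5.64), and the peak inside the gene is strong in the knockout and rotenone (4.31 and 4.65).

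At both Il6 and Ccl2, then, the best ranked peak at the gene in the knockout did not overlap the best ranked one in control, and the same held for rotenone and vehicle. Of the 4 members with a strong peak at the gene, this was 2 in the knockout comparison, where 13.3% of genes with a strong peak in both libraries showed it, and 2 in rotenone, where 13.9% did. Between vehicle and control it was 0 of 4, and 7.95% of genes. With 4 genes and a comparison chosen after the values were seen, these counts are a description only.

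Cxcl1 (chromosome 5, 90891245-90893121) and Cxcl2 (90903899-90905938) had weak peaks at their starts and strong peaks at a distance. The same 4 strong regions lay in both windows and were strong in all 4 libraries, so no region was gained or lost at these 2 genes. The strongest 2 lay before Cxcl1. The region at 90876012-90876370, 15054 bp from Cxcl1, had folds of 11.6, 7.79, 9.34 and 7.51 at ranks 4147, 5618, 8809 and 8487 in control, knockout, vehicle and rotenone. The rank differed most between the 2 control libraries, by more than 2-fold. The region at 90881699-90882039, 9376 bp from Cxcl1, had folds of 8.90, 6.92, 11.2 and 9.34 at ranks 7872, 7696, 4812 and 4187. In rank, both regions differed less within each comparison than between vehicle and control. In fold, the region at 90876012-90876370 differed more between the knockout and control than between vehicle and control. Strong peaks as a whole had lower folds in the knockout. The region at 90884969-90885200 had folds of 6.82, 4.69, 6.49 and 4.69 at ranks 16476, 23134, 20571 and 28926, and it was lower in rank in the knockout and rotenone. The last, 38349 bp beyond Cxcl1 and inside another gene, Mthfd2l, had folds of 6.57, 4.63, 6.22 and 5.69 at ranks 17670, 24534, 21775 and 18675.

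The start windows of the 2 chemokine genes are shown because both hold NF-kB matches that the peaks cover in some libraries only (GRCm38.p6, plus strand, chr5:90890995-90891294 for Cxcl1 and chr5:90903649-90903948 for Cxcl2). Capitals mark matches to GGGNNTTTC on either strand.

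Cxcl1: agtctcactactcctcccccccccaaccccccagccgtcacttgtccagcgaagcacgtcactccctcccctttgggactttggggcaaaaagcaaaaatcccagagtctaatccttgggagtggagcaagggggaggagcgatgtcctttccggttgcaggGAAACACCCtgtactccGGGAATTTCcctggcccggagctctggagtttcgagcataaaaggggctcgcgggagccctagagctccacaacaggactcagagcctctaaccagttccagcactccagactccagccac

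Cxcl2: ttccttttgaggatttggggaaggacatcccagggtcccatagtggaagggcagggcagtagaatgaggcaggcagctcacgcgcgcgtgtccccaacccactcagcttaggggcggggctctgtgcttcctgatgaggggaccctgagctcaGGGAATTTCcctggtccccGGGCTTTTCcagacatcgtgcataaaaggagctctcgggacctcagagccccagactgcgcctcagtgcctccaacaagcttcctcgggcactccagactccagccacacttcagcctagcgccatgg

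The start of Cxcl1 was covered by a peak of 423 bp in control (fold 4.08, rank 50478), 319 bp in the knockout (fold 2.28, rank 256060), 584 bp in vehicle (fold 4.21, rank 51465) and 225 bp in rotenone (fold 3.38, rank 70662). The knockout peak stood far down its list, and the rotenone peak below that of vehicle by less than 2-fold in rank. The match from -71 to -63 bp lay inside the peak in all libraries, and the one from -88 to -80 bp in all but the knockout, whose peak began at -85 bp. At Cxcl2 the start peak was 121 bp wide in control (fold 2.58, rank 162283), 266 bp in vehicle (fold 3.41, rank 86484), 56 bp in the knockout (fold 3.15, rank 61300) and 54 bp in rotenone (fold 3.39, rank 69460). The narrow knockout and rotenone peaks both began at 17 bp inside the gene. Both Cxcl2 matches, from -97 to -89 bp and from -78 to -70 bp, were covered in vehicle and in none of the other 3. Unlike at Cxcl1, the Cxcl2 start ranked higher in the knockout than in control. All these start peaks were outside the strong lists.

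Cxcl5 (chromosome 5, 90759298-90761625) had weak peaks at the gene, with folds of 3.02, 2.47, 2.84 and 2.69 at ranks 98260, 165166, 161888 and 194722 in control, knockout, vehicle and rotenone. These peaks did not all lie at the same place. Its only strong region, at 90731507-90731850 and 27620 bp away, had a fold of 4.62 at rank 38003 in control cells, 3.64 at rank 40785 in knockout cells, 5.71 at rank 27421 with vehicle and 4.23 at rank 36748 with rotenone. It was strong in vehicle alone, just inside rank 30000, and was included only for that reason, so its order against vehicle was set by that choice.

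Areg (chromosome 5, 91139599-91148432), the growth factor gene of the list, had no strong peak within 50000 bp in any library. The peak over its start had a fold of 4.67 at rank 36990 in control cells, 3.60 at rank 42733 in knockout cells, 4.44 at rank 47135 with vehicle and 3.97 at rank 40936 with rotenone. It began within 2 bp of the same position in all 4 (91139462 to 91139464) and was 536 bp wide in control and 392, 367 and 368 bp in the others. Its ranks thus ran close together, and control and vehicle were farthest apart. The start window (GRCm38.p6, chr5:91139349-91139648, plus strand) is shown because every library's peak covers the 2 matches in it, marked in capitals: the cyclic AMP response element TGACGTCA from -61 to -54 bp and a TATAAA box from -31 to -26 bp.

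Areg: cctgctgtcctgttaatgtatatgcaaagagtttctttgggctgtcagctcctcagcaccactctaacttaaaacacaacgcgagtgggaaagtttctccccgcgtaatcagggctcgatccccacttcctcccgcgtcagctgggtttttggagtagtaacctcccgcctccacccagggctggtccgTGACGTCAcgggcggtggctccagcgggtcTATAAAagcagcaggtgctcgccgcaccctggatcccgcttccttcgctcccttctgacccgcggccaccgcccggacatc

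Cxcl12 (chromosome 6, 117168535-117181368) had no strong peak at the gene either. Its best peak there lay inside the gene in control (fold 4.11, rank 48664), the knockout (fold 3.10, rank 63453) and vehicle (fold 5.15, rank 35921). In rotenone the peak at this place had a fold of 3.12 at rank 94548. It ranked lower in the knockout than in control and lower in rotenone than in vehicle. A region just beyond the 1000 bp limit, at 117166935-117167113, had folds of 5.12, 4.75, 6.58 and 4.81 at ranks 31704, 22792, 21330 and 28021 in control, knockout, vehicle and rotenone. It was strong in all but the control library, where it fell just outside the list.

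The region gained at Cxcl12 in rotenone lay 26194 bp beyond the gene, at 117207493-117207631. Its fold was 3.02 at rank 95587 in control cells, 2.99 at rank 70478 in knockout cells, 3.64 at rank 75421 with vehicle and 5.42 at rank 20517 with rotenone. Rotenone alone had a strong peak there. On the other side, the region at 117137863-117138074 had folds of 4.69, 3.70, 4.39 and 4.78 at ranks 38310, 39669, 49551 and 27451, and it too was strong in rotenone alone. Both regions were included only because their rotenone peak was strong, so their order in the rotenone comparison was set by that choice. Cxcl12 was the only member with more strong peaks in rotenone than in each of the other libraries. It had 3 of 19 in rotenone, 0 of 31 in control, 1 of 32 in the knockout and 1 of 22 in vehicle. That is 15.8%, 0%, 3.1% and 4.5%, where 8.6%, 6.9%, 5.1% and 8.8% of the whole lists are strong. The rotenone peaks at ranks 27451 and 28021 lay just inside the strong list. At the place of the latter, the control peak lay just outside it, at rank 31704. The counts thus depend on where the strong list was cut.

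The motif letters were searched on both strands in the 32817 RefSeq start windows of this length. GGGNNTTTC was found in 4.36% of them, TGANTCA in 7.81%, TTGCNNAA in 10.8%, TGACGTCA in 1.79% and TATAAA in 13.6%. Windows for 5 members were in the table (Il6, Cxcl1, Cxcl2, Cxcl12 and Areg), and 3 of these held GGGNNTTTC. That of Cxcl12 held none of the 5 motifs. No motif overlapped another in these windows. Of all windows, 24.3% to 24.8% overlapped a strong peak, depending on the library; of the 5 members only Il6 did, in control and vehicle. A match of letters is not a binding site, and its bearing on the peaks was not tested.

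The genes with the most similar folds of the best peak at the gene over the 4 libraries were Cpm for Il6, Usp50 for Ccl2, Ppie for Ccl7 and Zc3h12a for Tnfrsf11b. Likeness was the distance over the 4 log2 folds, which was 0.05, 0.09, 0.09 and 0.07. It rests on 4 values, and 115 to 243 of 16607 genes lay within a distance of 0.25 of each member.

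Other genes of the pathway were read from 3 lists. Of 22 other secreted factors of senescent cells, 3 of 70 strong knockout peaks were gained (4.29%), at Cxcl14, Ccl5 and Mif, and 3 of 66 strong control peaks lost (4.55%), at Cxcl10, Mif and Ccl11. The lost Cxcl10 region lay inside Art3 and the lost Mif region nearest to Derl3. The Ccl11 region is the lost region upstream of Ccl2, and the Ccl5 region, 31 bp wide and next to Heatr9, was also gained in vehicle against control. In rotenone, regions within 50000 bp of Il11 (nearest to Kmt5c), Cxcl14 and Csf3 (inside Gsdma) were gained, and 2 of 70 strong vehicle peaks were lost (2.86%), within 50000 bp of Gdf15 (nearest to Ssbp4) and inside Igfbp3. The Igfbp3 region was strong in vehicle and called between vehicle and control as well. Vehicle against control gave 2 of 70 and 0 of 66.

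Among 16 receptors and partners of the members, Egfr, the receptor of amphiregulin, lost 2 regions in each comparison, all inside the gene. A region near 16848834-16849228 on chromosome 11 was lost in both, with a fold of 6.60 in control and 6.98 in vehicle. The number of strong peaks in the Egfr window is not given here, so the share lost at this gene is not known. Ackr3, which encodes a scavenging receptor for CXCL12, gained 1 region in each, at 90203843-90204037 in the knockout and 90205415-90205594 in rotenone on chromosome 1. Tnfsf10, the gene of TRAIL, another ligand that osteoprotegerin binds, lost 1 in the knockout that was also lost in vehicle against control. Tnfsf11, the gene of the osteoprotegerin target RANKL, gained 1 in the knockout at 23063 bp, with a fold of 6.18 at rank 12157. In rotenone, regions in the windows of Cxcr2 (inside Tns1), Ccr1 and Erbb2 (inside Ikzf3) were also gained and 1 in that of Erbb3 (nearest to Zc3h10) lost. The list as a whole had 2 of 30 gained and 3 of 36 lost in the knockout (6.67% and 8.33%, against 5.33% and 6.76% of all strong peaks). In rotenone 4 of 36 were gained and 3 of 29 lost (11.1% and 10.3%, against 6.81% and 8.04%). Vehicle against control gave 0 of 29 and 1 of 36.

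Of 24 regulators of inflammatory secretion, which include NF-kB, C/EBP and AP-1 genes, 4 of 108 strong knockout peaks were gained (3.70%) and 8 of 106 control peaks lost (7.55%). In rotenone 4 of 107 were gained (3.74%) and 6 of 107 lost (5.61%); vehicle against control gave 2 of 107 and 1 of 106. In the knockout, 1 region each was gained in the windows of Nfkb1, Jun, Junb and Fosl1, and 2 each were lost in those of Fosb and Fosl2 and 1 each in those of Nfkbiz, Socs3, Jun and Mapk14. Several of these lay at other genes: the Nfkb1 region inside Manba, the Junb region inside Hook2, the Fosl1 region 21 bp from Mus81, the Nfkbiz region inside Nxpe3, the Mapk14 region inside Mapk13 and 1 Fosl2 region nearest to Babam2. The gained Jun region and the lost Socs3 region were called the same way in vehicle against control. With rotenone, 1 each was gained in the windows of Nfkb2, Nfkbia, Junb and Fosb, and 1 each lost in those of Nfkbiz, Cebpb, Socs3, Jun, Atf3 and Mapk14. Of these, the Junb region lay inside Hook2, the Fosb region inside Vasp, the Nfkbia region nearest to Aldoart2 and the Mapk14 region nearest to Mapk13. Jun, which encodes an AP-1 subunit, lost the same region, 46414 bp away, in both comparisons, with a fold of 6.28 in control and 7.42 in vehicle. The Nfkbiz region lost in rotenone lay 437 bp from the gene, and that of Cebpb, the gene of C/EBPβ, 8809 bp away. Set against the shares of 5.33% to 8.04% over all strong peaks, the shares given for these lists in the knockout and rotenone comparisons ran from 2.86% to 11.1%, and each rests on 2 to 8 peaks. Between vehicle and control the shares of these lists ran from 0% to 2.86%, each on at most 2 peaks. Over all strong peaks they were 1.03% gained and 0.847% lost.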

How the data were processed

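The 4 ATAC-seq libraries were analysed from 1 deposited peak list each. Bowtie2, bedtools, MACS2 and HOMER and the build mm10 are named in the submitters' processing notes; versions, settings, read filters and any Tn5 shift are not stated in the labels. The deposited lists have no header and were read as 9 columns laid out like a broad peak file. The deposited fold is a linear ratio of signal to local background. The deposited −log10 p and −log10 q are the caller's own values within 1 library, and the deposited score, which follows −log10 q, was not used. Depth is unknown, so no interval is given.

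Starts were made 1-based. Peaks were ranked by −log10 p, ties by fold, and overlap meant 1 bp. Gene positions and start windows came from RefSeq (GRCm38.p6). Named regions were the best peak at each member gene, every gained or lost region, and the best other strong regions; other strong regions were added. From the other lists, genes with a called region were named, except 1 item that is not reported here. The likest gene had the smallest Euclidean distance. The members, lists and motifs were chosen with earlier results of these data known, and the comparisons of ranks, widths and best peaks were added after seeing the values. Overlap code was tested on planted regions. Python 3.11.15, numpy 2.4.6, pandas 2.3.3 and matplotlib 3.10.9 were used.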

Additional observations from a re-analysis of the deposited data

How the results depend on the processing

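The called regions at the member genes depended on the settings. With 15000 strong peaks and a partner list of 30000, 0 of 8 were gained in the knockout and 0 of 6 in rotenone. In the knockout comparison 2 of 8 were lost (both at Ccl2, the upstream region and the boundary peak). In rotenone 1 of 8 was lost, at the same upstream region of Ccl2 as in the knockout. The shares over all peaks were then 4.9% and 5.58% in the knockout and 5.52% and 6.09% in rotenone, gained and lost. With 60000 and 120000, 2 of 34 were gained and 7 of 40 lost in the knockout comparison, 1 of 30 was gained and 5 of 38 lost in rotenone, and 3 of 78 differed between vehicle and control. These were mostly different regions: the called regions at Tnfrsf11b and Cxcl12 and the knockout one at Ccl2 were no longer called, and the rotenone one at Ccl2 was. The gains in the knockout lay near Il6 and, at another place, inside Tnfrsf11b (54277360-54277475, fold 3.38, rank 50355). The gain in rotenone lay near Cxcl1. More losses of each comparison lay around Ccl2 and Ccl7 than at any other member, and those in the knockout included the Cxcl1 start. The Ccl2 window also held the most peaks to lose, 16 of the 40 in control and 15 of the 38 in vehicle, and Ccl7 shares them. The count of losses there is therefore not read as a concentration. The shares over all peaks rose to 12.1% and 14.0% in the knockout, 15.6% and 16.5% in rotenone, and 3.76% between vehicle and control. When a partner peak of any strength counted, 0 were gained and 0 lost in either comparison, with shares of 0.243% to 0.943% over all peaks. Every member region thus had some peak in its partner. With 50% coverage, 2 of 17 were lost in the knockout and 2 of 19 in rotenone, the added one being the wide Tnfrsf11b boundary peak in both. Over all peaks 13.2% and 14.7% were then lost. Within 10000 bp of the genes, 0 of 9 were gained and 0 of 9 lost in the knockout, and 0 of 10 gained and 0 of 10 lost in rotenone. With 5.33% to 8.04% of all strong peaks called, so few peaks cannot show a lower share near the genes. Within 100000 bp, 2 of 31 were lost in the knockout, 2 of 31 gained in rotenone and 2 of 29 lost in rotenone. The shares over all strong peaks were 6.76%, 6.81% and 8.04%. Ranking by fold kept the same 4 regions. Of 35 values under alternatives, 15 stayed within 1.5 times the reported count and 20 did not. No paired analysis was possible because each group has 1 library. Precision cannot be judged without read counts.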
